A study of Homo sapiens with 24 samples.

Results

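HepG2 cells, a human hepatocellular carcinoma line, were exposed to interferon gamma (IFNg) together with either of a pair of BET inhibitors, and the 2 inhibitor groups were compared. The libraries were those titled for IFNg with ABBV-075 at 50 nM (3 libraries) and for IFNg with ABBV-744 at 500 nM (3 libraries), 6 of the 24 in the series. All 6 had received IFNg, and they differed in both the compound and its dose, so that compound and dose cannot be told apart in this comparison. The series holds 8 groups of 3 libraries in all: the DMSO vehicle, ABBV-075 at its single dose of 50 nM, and ABBV-744 at either 50 or 500 nM, each of them without and with IFNg. The dose of IFNg and the exposure times of these 6 libraries were not given in the sources used here. The cells are a single tumour line, and nothing in the labels says whether the triplicates came from separate cultures, so p-values measure the spread between these libraries only, which may be technical. In bulk RNA from such libraries, fewer cells with a transcript and less transcript per cell cannot be told apart.

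BET proteins, BRD2 and BRD3 among them, bind acetylated histones through paired bromodomains and help to recruit the elongation factor P-TEFb to promoters and enhancers. ABBV-075 blocks both bromodomains of these proteins, whereas ABBV-744 is selective for the second bromodomain. HEXIM1, an inhibitor of P-TEFb, is widely used as a transcript that rises when BET proteins are blocked. IFNg acts through its receptor and the kinases JAK1 and JAK2, and factors activated by them bind GAS elements in the promoters of primary response genes such as IRF1. IRF1 in turn acts on interferon-stimulated response elements (ISRE) of a later wave of genes. In hepatocytes, NR1H4 encodes FXR, the nuclear receptor for bile acids.

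Between 2978982 and 3996602 reads per library were counted on the sense strand of genes in the 6 libraries, against 2978982 to 4304103 over all 24. This depth is low for a transcriptome, so genes at a few CPM (read counts scaled to a common library size) rest on few reads. Only 12.8 to 13.8% of reads with ABBV-075 and 12.5 to 13.3% with ABBV-744 were counted on genes. Reads that mapped to several places made up 61.9 to 67.1% and 64.3 to 66.3%. Within the ABBV-075 group, replicate 1 lay farther from replicates 2 and 3 (chi-square per degree of freedom 4.90 and 5.58) than those lay from each other (1.66). Within the ABBV-744 group, replicates 1 and 3 lay farthest apart (6.01). No 2 libraries agreed within sampling noise. The 8 hepatocyte markers (ALB, AFP, APOA2, APOB, SERPINA1, TTR, FGB and HNF4A) were detected in both groups and summed to 18619 to 21022 CPM with ABBV-075 and to 17192 to 23568 CPM with ABBV-744. Of 12 markers of other cell types, 6 were detected in each group. PTPRC, CD3E, COL3A1, DCN and HBB had no count in either. LYZ alone made up most of their summed level, which was 1102 to 1358 CPM with ABBV-075 and 1542 to 1652 CPM with ABBV-744. The mean GC content of the reads on protein-coding genes overlapped between the groups, at 47.4 to 48.4% with ABBV-075 and 47.2 to 48.0% with ABBV-744.

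With IFNg present, ABBV-075 at 50 nM left a set of transcripts several-fold lower than ABBV-744 at 500 nM did, among them NR1H4, the signalling factor VAV3, the growth factor gene INHBC and the interferon-induced genes TRIM22, CASP1 and CTSS. By the thresholds of the study (a change of 1.5 or more on the log2 scale, up or down, that also passed an adjusted p of 0.05), applied here to edgeR's quasi-likelihood test in place of DESeq2 and called the study criteria, 66 genes were lower and 11 were higher with ABBV-075 among 10967 tested, or 0.602% and 0.100%. DESeq2 gave 62 lower and 10 higher genes by the same thresholds. At an adjusted p of 0.05 or less alone, 830 genes (7.57%) were lower and 725 (6.61%) were higher, so that 46.6% of the called genes were higher. When libraries were scaled by their size only, the higher share was 34.8%. The 2 groups did not overlap for any of the 77 genes that met the study criteria, whereas they did not overlap for 30.1% of all genes tested. The criteria were applied to the same 6 libraries and favour such genes, so this describes the calls and adds no support to them. The 95% interval of the difference lay within 1 log2 unit of 0 for 87.0% of genes tested. The 77 calls comprised 75 protein-coding genes, 1 long non-coding RNA (NPSR1-AS1, lower) and 1 pseudogene (HTR7P1, higher), whose reads could also stem from its parent gene. The values nearest the fold threshold were 1.52 for CNNM4 and 1.49 for TXNIP on the higher side, and -1.50 for SYNC and -1.49 for SGK2 on the lower side.

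NR1H4 (GRCh38 chromosome 12, 100473708 to 100564414, plus strand) was measured at 5.96, 5.17 and 3.01 CPM with ABBV-075 and at 42.8, 40.8 and 34.4 CPM with ABBV-744. All 3 ABBV-075 libraries were far under the lowest ABBV-744 library. The log2 fold change was -3.0 ± 0.21 (SE; adjusted p = 5.71e-11). IFNg alone gave 58.0 ± 6.83 CPM (SD, n = 3), and the log2 ratios to it were -0.55 with ABBV-744 and -3.49 with ABBV-075 (0.5 CPM added, a description without a test).

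HEXIM1 went the other way. It stood at 136, 129 and 140 CPM with ABBV-075, at 72.2, 69.2 and 73.1 CPM with ABBV-744 and at 47.0 ± 2.32 CPM with IFNg alone. Its log2 fold change between the inhibitors was 0.94 ± 0.10 (adjusted p = 2.06e-07), under the study's fold criterion. Its groups did not overlap, and ABBV-744 at 500 nM lay between IFNg alone and ABBV-075.

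**Figure D1:**
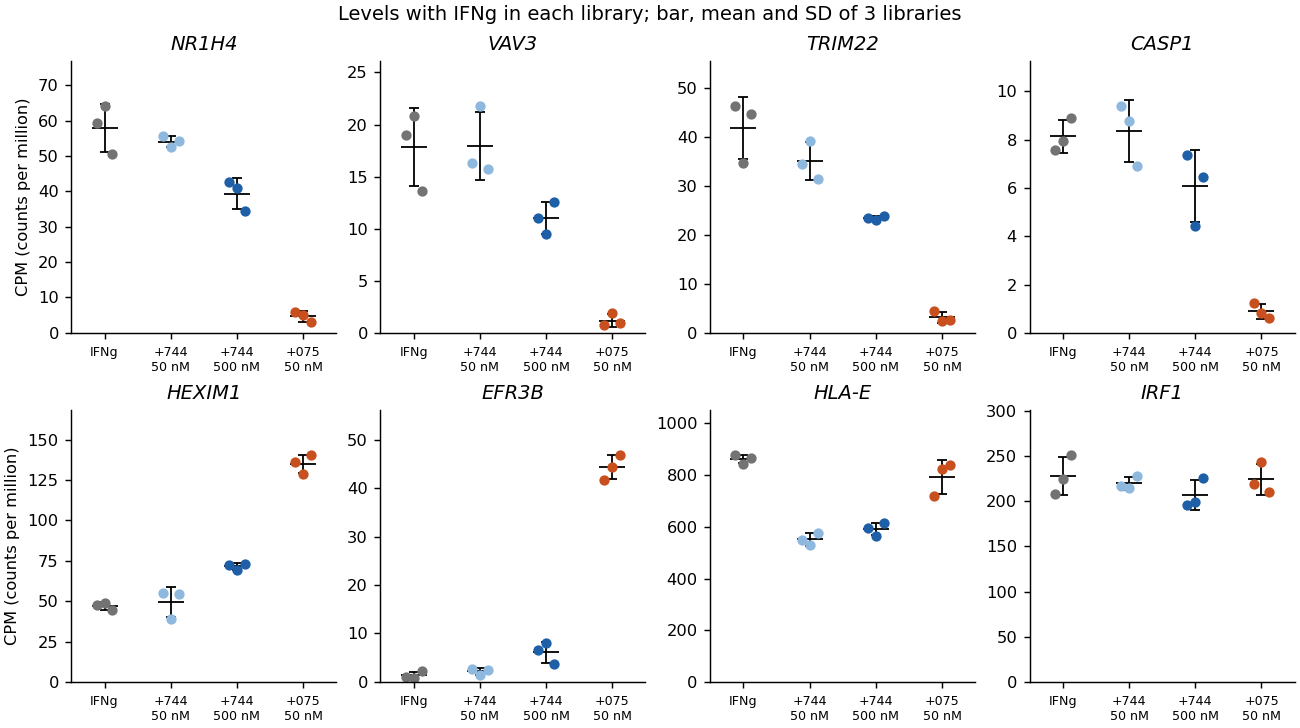
CPM of 8 genes (vertical axes, each starting at 0) in the 3 libraries of each of the 4 groups with IFNg; points are libraries, the bar and whiskers the mean and SD. NR1H4, VAV3, TRIM22 and CASP1 were near the axis with ABBV-075 only, HEXIM1 and EFR3B were highest with it, HLA-E was higher with it than with ABBV-744, and IRF1 was at about the same level in all 4 groups.

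The 10 genes with the most negative fold changes were INHBC, VAV3, NR1H4, NPSR1-AS1, TRIM22, SLC30A10, CASP1, ASB4, CTSS and PALMD, from -3.20 to -2.32. INHBC, an activin-family subunit made in liver, had 4, 2 and 1 reads with ABBV-075 and 16, 14 and 30 reads with ABBV-744, so its log2 fold change of -3.20 ± 0.49 (adjusted p = 4.44e-05) rests on few reads. VAV3, a guanine nucleotide exchange factor, was at 0.745, 1.90 and 0.904 CPM with ABBV-075 and at 11, 9.47 and 12.6 CPM with ABBV-744. SLC30A10, a manganese exporter, was at 1.49, 2.18 and 0.904 CPM with ABBV-075 and at 8.69, 13.9 and 10.1 CPM with ABBV-744. For SLC30A10 the log2 ratio to IFNg alone was -0.06 with ABBV-744 and -2.56 with ABBV-075, and for NPSR1-AS1 it was -0.05 and -2.54. For 63 of the 66 lower genes, the mean level with ABBV-744 lay between those of ABBV-075 and of IFNg alone. The same order held for 9 of the 11 higher genes and for 571 of the 830 genes lower at an adjusted p alone. Choosing genes by their level with ABBV-075 favours this order, so these counts are a description.

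The 11 higher genes included EFR3B, YPEL1, THEMIS2, CEP85L, HTR7P1, FAM171A2, RASL11A, NPB, KIAA0513 and CNNM4, from 2.87 to 1.52. EFR3B, which anchors phosphatidylinositol 4-kinase at the plasma membrane, was at 41.7, 44.3 and 46.7 CPM with ABBV-075 and at 6.68, 7.99 and 3.68 CPM with ABBV-744. The difference was 2.87 ± 0.20 on the log2 scale (adjusted p = 5.71e-11), and IFNg alone gave 1.40 ± 0.72 CPM. YPEL1, THEMIS2 and NPB were all under 6 CPM in both groups. NPB lost its call in counts taken without regard to strand (log2 fold change 0.20, adjusted p = 0.619). TXNIP, an inhibitor of thioredoxin and of glucose uptake, stood just under the fold criterion at 1.49 ± 0.11 (adjusted p = 6.67e-11), with 140, 134 and 140 CPM against 54.1, 50.6 and 46.0 CPM.

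Interferon-induced genes were unevenly affected: several effector genes were lower with ABBV-075 than with ABBV-744, IRF1 was not detectably different, and HLA-E was higher. TRIM22, an antiviral ubiquitin ligase (GRCh38 chromosome 11, 5689610 to 5737089, plus strand), was at 4.47, 2.45 and 2.71 CPM with ABBV-075 and at 23.4, 23.1 and 23.9 CPM with ABBV-744. Its log2 fold change was -2.81 ± 0.24 (adjusted p = 2.74e-09), and it stood at 41.9 CPM with IFNg alone and at 1.60 CPM with DMSO. CASP1, the protease that matures interleukin-1 beta, was at 1.24, 0.816 and 0.603 CPM with ABBV-075 and at 7.35, 4.44 and 6.45 CPM with ABBV-744 (-2.66 ± 0.43, adjusted p = 7.10e-05). CTSS, a lysosomal protease of antigen processing, was at 1.99, 0.544 and 0 CPM against 7.35, 4.14 and 3.99 CPM (-2.43 ± 0.52, adjusted p = 0.00186). GBP1, a GTPase of cell-autonomous immunity, was at 4.47, 7.07 and 5.73 CPM against 19.1, 21.0 and 15.3 CPM (-1.66 ± 0.23, adjusted p = 1.04e-05). The inhibitor groups did not overlap for GBP1. For TRIM22, CASP1 and CTSS, groups that do not overlap were a condition of naming them among the largest changes.

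XAF1, a proapoptotic interferon-induced gene, ranked differently against IFNg alone. It was at 25.6, 17.9 and 14.5 CPM with ABBV-075 and at 58.2, 49.7 and 55.6 CPM with ABBV-744 (-1.45 ± 0.16, adjusted p = 2.60e-07), while IFNg alone gave 27.2 ± 6.14 CPM. Its log2 ratio to IFNg alone was 0.99 with ABBV-744 and -0.48 with ABBV-075. ERAP2, which trims peptides for HLA class I, had the same order (-0.76 ± 0.10, adjusted p = 3.69e-06), at 78.0, 135 and 90.2 mean CPM with ABBV-075, ABBV-744 and IFNg alone.

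HLA-E, a non-classical HLA class I gene, was at 718, 822 and 841 CPM with ABBV-075, at 596, 564 and 613 CPM with ABBV-744 and at 862 ± 16.4 CPM (SD, n = 3) with IFNg alone. The difference between the inhibitors was 0.45 ± 0.09 (adjusted p = 0.000878), and no ABBV-744 library reached the ABBV-075 libraries. IRF1 was at 219, 243 and 211 CPM with ABBV-075 and at 196, 199 and 226 CPM with ABBV-744, and the groups overlapped. Its difference of 0.14 had a 95% interval from -0.05 to 0.34 (adjusted p = 0.357). PSMB9, an immunoproteasome subunit, differed by -0.17, with an interval from -0.38 to 0.04 (adjusted p = 0.309). Both intervals exclude changes of the size measured for GBP1. CXCL10 had too few reads to be tested.

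**Figure D2:**
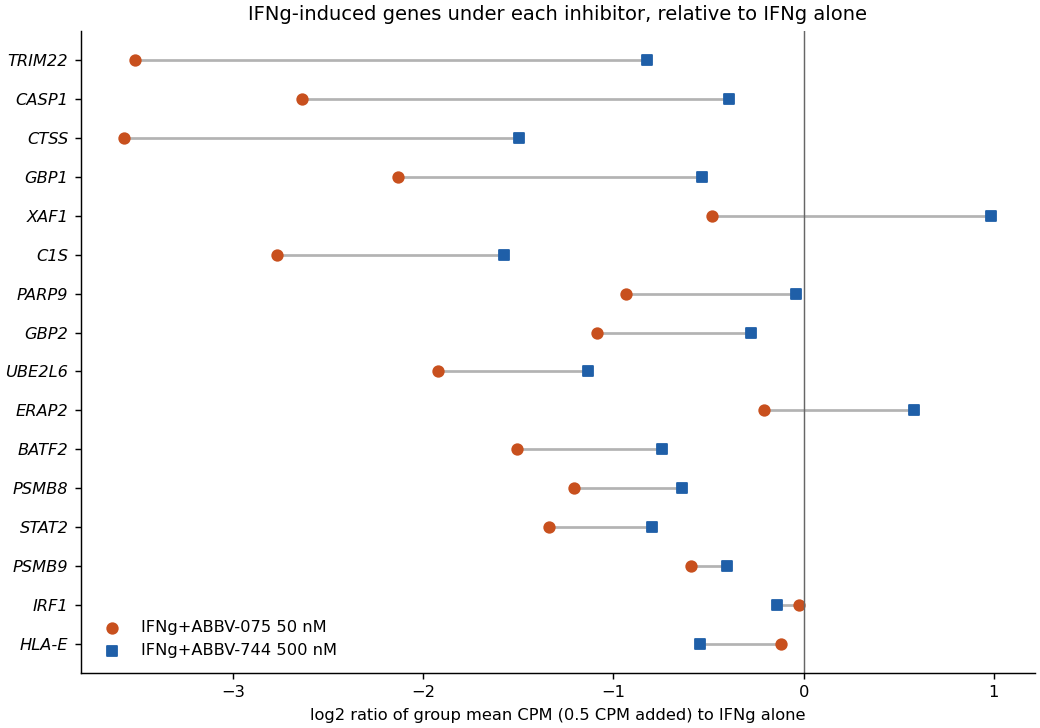
Log2 ratio of group mean CPM to IFNg alone (horizontal axis, with 0.5 CPM added to each mean) for 16 genes of the interferon response, with ABBV-075 50 nM as circles and ABBV-744 500 nM as squares. All but STAT2 were at least 4 times their DMSO level with IFNg alone, the measure of IFNg-induced genes used below. TRIM22 to STAT2 lie farther left with ABBV-075, PSMB9 and IRF1 differ little between the inhibitors, and HLA-E lies farther right with ABBV-075.

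Of 44 tested interferon-induced effector genes out of 53 listed, 24 were lower and 1 was higher with ABBV-075 at an adjusted p of 0.05 or less, and 6 of the lower ones met the fold criterion. The median log2 fold change was -0.61, against 0.01 over all genes tested. Of 16 tested receptor and signalling genes, 3 were higher (JAK1 and STAT3 among them), 4 were lower (USP18, BATF2, STAT2 and IFNGR2) and 9 did not pass, with a median of 0.12, where 6.61% and 7.57% of all genes were higher and lower. BATF2, a partner factor of IRF1, was at 36.5, 53.0 and 38.6 CPM against 69.2, 71.6 and 78.0 CPM (-0.75 ± 0.13, adjusted p = 0.000254). STAT2, which forms a complex with IRF9, was at 66.1, 74.5 and 68.1 CPM against 108, 102 and 94.5 CPM (-0.52 ± 0.11, adjusted p = 0.00113). Of 20 tested antigen presentation genes, 3 were lower (ERAP2, ERAP1 and PSMB8) and 1 was higher (HLA-E, 0.45 ± 0.09), with a median of -0.09, and GC correction gave 8 lower. A list drawn from other libraries, the 53 tested genes whose mean CPM with IFNg alone was at least 4 times that with DMSO after adding 0.5 CPM, held 29 lower genes, 3 higher genes (HLA-E and IFI6 among them) and a median of -0.76. Of the 66 genes lower by the study criteria, 8 were in that list (12.1%, against 0.483% of all genes tested). Most of the lower genes were therefore not IFNg-induced by this measure.

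Promoter sequences are shown for NR1H4, for GBP1 as an interferon-induced gene that was lower with ABBV-075, and for IRF1 as one that did not differ detectably. Each runs 5′ to 3′ on the gene's own strand, from 250 bases before to 50 bases after a RefSeq transcript start (GRCh38.p14), in lower case, with any match to the GAS motif TTCNNNGAA or the ISRE core (GAAA, any 2 bases, GAAA, or the reverse complement) in capitals.
NR1H4 (chr12:100503110-100503409, plus strand): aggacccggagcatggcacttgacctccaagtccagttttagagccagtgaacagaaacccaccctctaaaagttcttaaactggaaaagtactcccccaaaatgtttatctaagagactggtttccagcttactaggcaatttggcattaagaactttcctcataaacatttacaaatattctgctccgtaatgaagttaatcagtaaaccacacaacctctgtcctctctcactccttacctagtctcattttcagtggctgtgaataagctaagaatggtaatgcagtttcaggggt
GBP1 (chr1:89065159-89065458, minus strand): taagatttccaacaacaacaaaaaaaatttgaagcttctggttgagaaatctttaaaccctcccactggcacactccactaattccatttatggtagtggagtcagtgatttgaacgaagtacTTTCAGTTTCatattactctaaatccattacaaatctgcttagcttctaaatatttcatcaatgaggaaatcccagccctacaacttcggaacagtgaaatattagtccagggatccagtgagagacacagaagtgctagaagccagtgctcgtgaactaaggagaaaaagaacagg
IRF1 (chr5:132490724-132491023, minus strand): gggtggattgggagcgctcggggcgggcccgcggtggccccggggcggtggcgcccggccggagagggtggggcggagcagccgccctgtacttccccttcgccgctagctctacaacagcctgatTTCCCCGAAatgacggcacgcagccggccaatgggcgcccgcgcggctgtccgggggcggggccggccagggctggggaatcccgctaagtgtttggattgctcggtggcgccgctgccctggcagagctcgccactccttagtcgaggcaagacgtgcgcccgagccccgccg
GBP1 held 1 ISRE core match, TTTCAGTTTC, whose first base was 127 bases before the start, and no GAS match. IRF1 held 1 GAS match, TTCCCCGAA, 124 bases before its start, and no ISRE core match. The NR1H4 window held neither, and so did those of BATF2, STAT2 and PSMB9. Of 35116 promoters of this length, 7.66% held a GAS match and 3.57% an ISRE core match on either strand, and a window could count for both. Of the 29 IFNg-induced genes that were lower, 16 were matched to 23 promoters, of which 26.1% held a GAS match and 52.2% an ISRE core match. The other 24 IFNg-induced genes had 17 matched to 29 promoters, with 34.5% and 41.4%. The 66 genes lower by the study criteria had 51 matched to 86 promoters, with 10.5% and 6.98%. These are letter matches in a short window and describe no binding.

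Among the other lists, genes of hepatocyte function were lower with ABBV-075 in several groups, whereas others were near 0. Bile acid genes had 13 members tested of 25, of which 7 were lower, 1 was higher and the median was -0.50. Over all genes tested, 7.57% were lower and 6.61% were higher, so the 1 higher member lay near the general share. ABCC2, the canalicular exporter of conjugated bilirubin, was at 103, 85.9 and 92.5 CPM with ABBV-075 and at 330, 296 and 294 CPM with ABBV-744 (-1.68 ± 0.10, adjusted p = 1.93e-12). HSD3B7, an enzyme of bile acid synthesis, differed by -1.20 ± 0.12 (adjusted p = 5.45e-08). NR0B2, which encodes the repressor SHP and is a target of FXR, was the member that was higher (0.38, adjusted p = 0.0499), and no member of the list was higher when libraries were scaled by size only.

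Of 22 tested hepatocyte transcription factors, 6 were lower (NR1I2, HNF4G, RXRA, PROX1 and XBP1 among them), none was higher and the median was -0.34. The shares over all genes were 7.57% lower and 6.61% higher, here and for the drug metabolism genes below. NR1I2, the xenobiotic receptor PXR, was at 1.74, 3.81 and 3.32 CPM against 8.69, 9.17 and 11.4 CPM (-1.71 ± 0.31, adjusted p = 0.000349). HNF4A did not pass (-0.26, interval from -0.45 to -0.06, adjusted p = 0.0712). Among drug metabolism genes, 8 of 15 tested were lower and 1 was higher, with a median of -0.61. SULT2A1, a steroid sulfotransferase, was at 15.7, 13.3 and 9.95 CPM against 48.1, 44.1 and 43.0 CPM (-1.75 ± 0.16, adjusted p = 1.75e-08). UGT2B10 was also lower (-1.60), but its reads may be shared with close paralogs. DHRS2, a mitochondrial dehydrogenase, was the higher member, at 14054, 15270 and 15062 CPM against 7972, 7991 and 8319 CPM (0.90 ± 0.10, adjusted p = 2.93e-07).

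Complement and coagulation genes showed the highest share of lower members among the lists of genes by function: 20 of 27 tested were lower, none was higher and the median was -0.50. C1S, a protease of the classical pathway, was at 18.1, 16 and 19.6 CPM against 42.4, 38.8 and 43.9 CPM (-1.19 ± 0.15, adjusted p = 2.62e-06). Along with C1R and SERPING1, which were also lower, C1S belonged to the IFNg-induced genes listed above, so the lists overlap. C4BPB, a subunit of the complement inhibitor C4b-binding protein, was at 3.98, 3.26 and 3.32 CPM against 15.0, 12.7 and 12.3 CPM (-1.88 ± 0.26, adjusted p = 9.91e-06). The abundant fibrinogen chain gene FGG differed less (-0.45 ± 0.09, adjusted p = 0.00066). Of 31 tested genes for other secreted plasma proteins, 8 were lower (7.57% of all genes were), none was higher and the median was -0.12, led by SERPINA7, the thyroxine carrier (-1.10 ± 0.09, adjusted p = 2.74e-09). ORM1 and ORM2, a pair of near-identical acute-phase genes, were lower by similar amounts (-0.53 and -0.46), and their reads may be split between them.

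Metabolic lists were mixed, beside shares of 7.57% lower and 6.61% higher over all genes. Of 32 tested fatty acid and triglyceride genes, 9 were lower and 5 were higher, with a median of -0.07. The lower ones included GPAM, the first enzyme of glycerolipid synthesis (-1.96 ± 0.16, adjusted p = 6.34e-10), ACSL5, an acyl-CoA synthetase (-1.53 ± 0.11, adjusted p = 4.95e-11), and GPD1 (-1.55 ± 0.19, adjusted p = 1.68e-06). MTTP, which loads lipid onto apolipoprotein B, stood at 69.4 CPM with ABBV-075 and at 181 CPM with ABBV-744, the latter close to the 183 CPM of IFNg alone (-1.36 ± 0.10, adjusted p = 1.28e-10). Cholesterol synthesis genes had 4 higher and 3 lower of 27 tested, with a median of -0.01, with 2 higher and 4 lower under library size scaling alone and 5 of each with GC correction. Glucose and amino acid genes had 5 lower (8 with GC correction) and 3 higher of 36, among them SLC2A2, the hepatic glucose transporter (-1.67 ± 0.18, adjusted p = 1.94e-07).

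Cytokine, chemokine and NF-kB genes had 4 of 18 lower and none higher, where 7.57% and 6.61% of all genes were. IL1RN, the interleukin-1 receptor antagonist, was at 2.73, 2.99 and 1.51 CPM against 7.02, 9.17 and 10.1 CPM (-1.81 ± 0.32, adjusted p = 0.000278), and LIF, an interleukin-6 family cytokine, differed by -1.58 ± 0.20 (adjusted p = 3.41e-06). Apoptosis and stress genes had 4 lower and 3 higher of 27, led on the lower side by MLKL, the effector of necroptosis (-1.99 ± 0.41, adjusted p = 0.00122), at 0.497, 1.63 and 3.01 CPM against 7.69, 5.03 and 7.67 CPM. Of 46 cell cycle and replication genes, 41 did not pass, 3 were lower and 2 were higher, with a median of -0.06, shares below the 7.57% and 6.61% of all genes. Library size scaling gave 5 lower genes in that list, where 944 of all 10967 genes tested were lower. GC correction gave 9 lower and 6 higher, where 1323 and 1107 of all genes were. In neither setting was the list's lower share below that of all genes, nor was its higher share with GC correction.

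**Figure D3:**
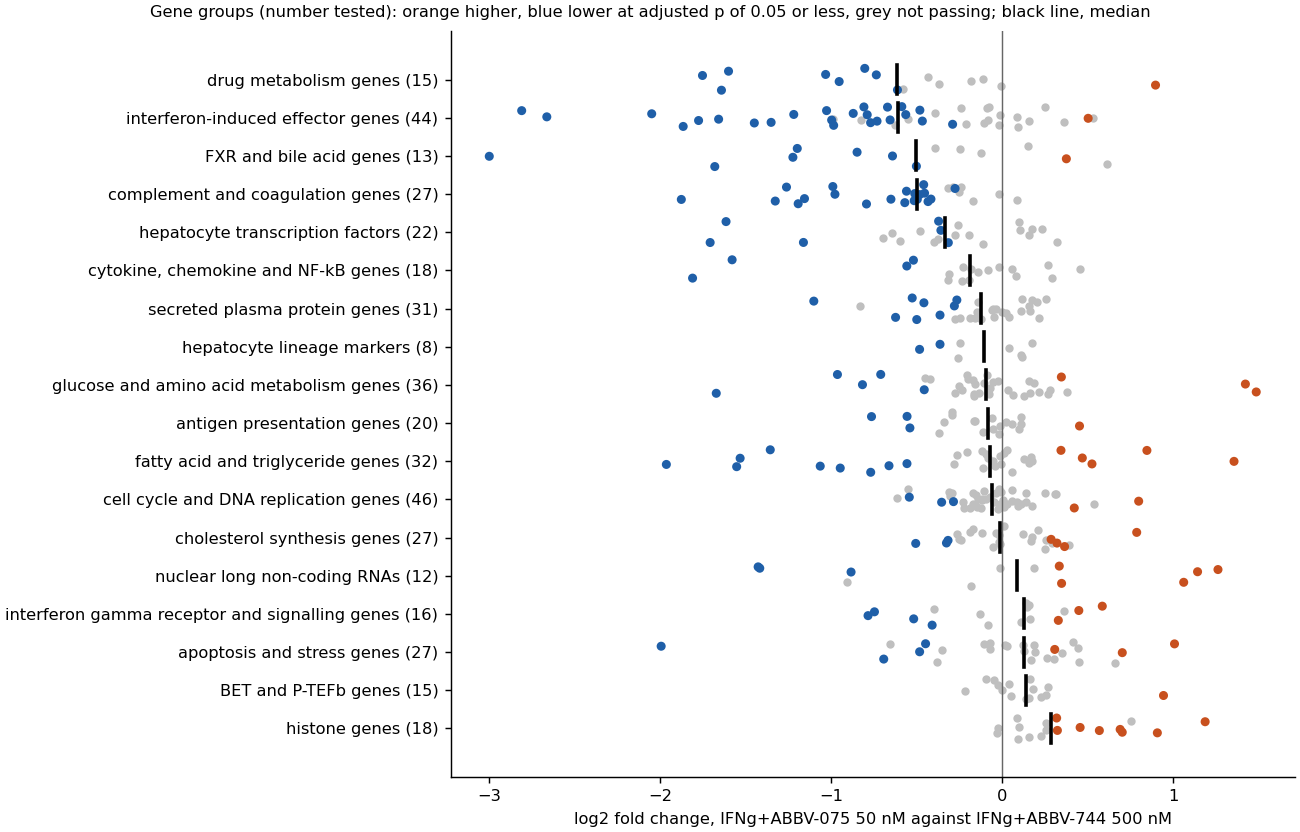
Log2 fold change of each tested gene (points, horizontal axis) in 18 lists, ABBV-075 50 nM against ABBV-744 500 nM, both with IFNg; the black line is the list's median and the number in brackets the genes tested. Drug metabolism, interferon effector, bile acid and complement genes have medians from -0.61 to -0.50, and histone genes have the highest median, 0.29.

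On the higher side, 8 of 18 tested histone genes were higher, where 6.61% of all genes were, none was lower and the median was 0.29. H1F0, the replacement linker histone H1.0, was at 831, 850 and 886 CPM with ABBV-075 and at 522, 531 and 553 CPM with ABBV-744 (0.70 ± 0.09, adjusted p = 1.64e-06). H1FX, another linker histone, H2AFX, the H2A variant of damaged DNA, and H3F3B, a replacement H3 gene, differed by 0.91, 0.69 and 0.57. NEAT1, the nuclear RNA that forms paraspeckles, was at 735, 570 and 609 CPM against 277, 299 and 306 CPM (1.14 ± 0.10, adjusted p = 1.92e-09). Nuclear long non-coding RNAs as a list went both ways, with 5 higher (3 under library size scaling) and 3 lower of 12 tested, LINC00261 (-1.42) among the lower ones. Over all genes tested, 6.61% were higher and 7.57% were lower. Within the BET and P-TEFb list, HEXIM1 was the 1 member of 15 that passed, a share near the 6.61% of all genes that were higher. With GC correction 3 members were higher, where 1107 of all 10967 genes tested were. BRD2 differed by 0.22 (interval from 0.03 to 0.42, adjusted p = 0.115).

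Genes that ABBV-075 alone had moved against DMSO, in 6 other libraries without IFNg, were used to describe the spread of the difference. ABBV-075 lowered 359 genes and raised 122 by the study criteria there, against 35 and 3 for ABBV-744 at 500 nM. Of the 359 lowered genes, 231 had enough reads to be tested here, and the rest were too low in these 6 libraries. Among the 231, 159 were lower with ABBV-075 than with ABBV-744 (51 by the study criteria), none was higher, and the median was -1.03. Over all genes tested, 7.57% were lower, and 0.602% were lower by the study criteria. SPOCK2, AGAP2-AS1 and PEMT, 3 of the 231 and named after their values were seen, had positive fold changes, none of which passed. Of the 122 raised genes, 112 were tested: 58 were higher (8 by the study criteria), none was lower, and the median was 0.60. The shares of all genes tested were 6.61% higher, and 0.100% higher by the study criteria. Replicates 1 and 3 of ABBV-075 without IFNg, on which both lists rest, lay farther apart than any other pair compared (chi-square per degree of freedom 16.6). The lists were selected for their response to ABBV-075, and members passed the filter on low counts partly through the group in which they were higher, so the counts are a description.

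**Figure D4:**
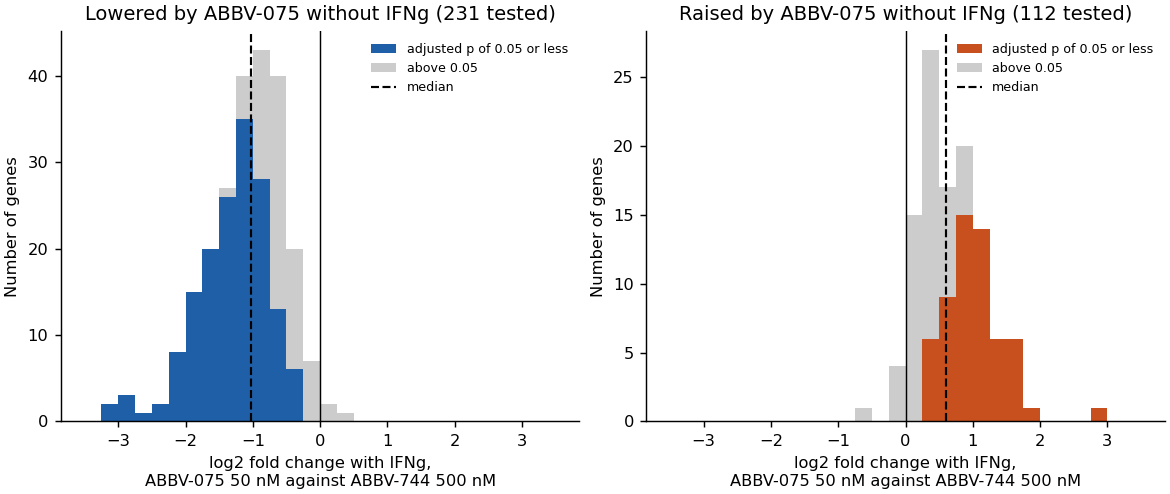
Number of genes (vertical axes) by log2 fold change between ABBV-075 50 nM and ABBV-744 500 nM with IFNg, in bins of 0.25, for genes that ABBV-075 alone lowered (left) or raised (right) against DMSO without IFNg; coloured parts passed an adjusted p of 0.05, and the dashed lines are the medians, -1.03 and 0.60. Nearly all of the lowered genes lie under 0, and most raised genes lie over it.

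The same ABBV-075 libraries could be set beside ABBV-744 at the matched dose of 50 nM, also with IFNg. This second comparison shares the ABBV-075 libraries, so its values are given beside the first without testing 1 against the other. At 50 nM of each compound, 126 genes were lower and 40 were higher with ABBV-075 by the study criteria (1.13% and 0.360% of 11126 tested), and 33.7% of genes passed an adjusted p of 0.05. NR1H4 was at 55.5, 52.5 and 54.2 CPM with ABBV-744 at 50 nM, and differed from ABBV-075 by -3.44 ± 0.18 (adjusted p = 1.42e-19). EFR3B was at 2.64, 1.41 and 2.49 CPM and differed by 4.35 ± 0.22 (adjusted p = 4.17e-20). HEXIM1 was at 55.3, 38.7 and 54.5 CPM and differed by 1.49 ± 0.11 (adjusted p = 7.41e-15). TRIM22 was at 34.6, 39.2 and 31.5 CPM and differed by -3.37 ± 0.22 (adjusted p = 1.99e-16), while IRF1 differed by 0.08, with an interval from -0.09 to 0.25 (adjusted p = 0.520). With p-values adjusted over both pairs together, all 77 genes called at 500 nM kept an adjusted p of 0.05 or less.

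All 18 tested histone genes were higher with ABBV-075 than with ABBV-744 at 50 nM (median 0.57), where 16.7% of all genes were higher at an adjusted p of 0.05. At 500 nM, 8 of the 18 were higher, where 6.61% of all genes were, and the difference between the pairs was not tested. The mean GC content of reads did not overlap in this pair, at 47.4 to 48.4% with ABBV-075 and 46.9 to 47.1% with ABBV-744 at 50 nM, and its part in the histone result was not tested. Among the most positive differences at 50 nM, BAIAP3, a regulator of vesicle trafficking, was 2.51 ± 0.43 there and 1.12 ± 0.36 (adjusted p = 0.0371) at 500 nM, and TMEM191A was 2.56 ± 0.49 there and 0.82 ± 0.38 (adjusted p = 0.155) at 500 nM. THEMIS2 was at 3 reads or fewer in every library of ABBV-744 at 50 nM, which makes it at least 4.77-fold higher with ABBV-075 against a floor of 3 counts in each library.

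The contrast of the same compounds and doses was also measured without IFNg, in 6 libraries that share none with the first comparison. Of the 77 genes, 62 could be tested there (52 of the lower and 10 of the higher), and all 62 had the same sign, against 60.5% of the 10761 genes tested in both. Of these, 46 lower and 6 higher genes passed an adjusted p of 0.05 in that direction, where 12.7% and 15.2% of all genes did (28.0% in either direction). By the study criteria, 33 of the lower and 4 of the higher genes passed, where 0.831% and 0.703% of all genes did. Genes with few reads in the group where they were lower could pass the filter on low counts through the other group, which favours the same sign. The 60.5% covers all genes, called or not, and is no like measure for the 62. These counts are therefore a description. NR1H4 was at 4.09, 4.87 and 2.41 CPM with ABBV-075 and at 25.2, 24.7 and 23.3 CPM with ABBV-744 (-2.67 ± 0.25, adjusted p = 0.000221), and EFR3B differed by 2.34 ± 0.21 (adjusted p = 0.00016). The 15 genes not tested had too few reads without IFNg, TRIM22, CASP1, CTSS and GBP1 among them. The library groups without IFNg scarcely overlapped in base composition, with a mean GC content of reads of 47.1 to 48.9% with ABBV-075 and 48.9 to 49.9% with ABBV-744. Correction for GC content lowered the number of genes higher by the study criteria in that comparison from 77 to 9. Without ABBV-075 replicate 3, which stood apart from its group, that number was 235 and the number of lower genes was 151 in place of 91.

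**Figure D5:**
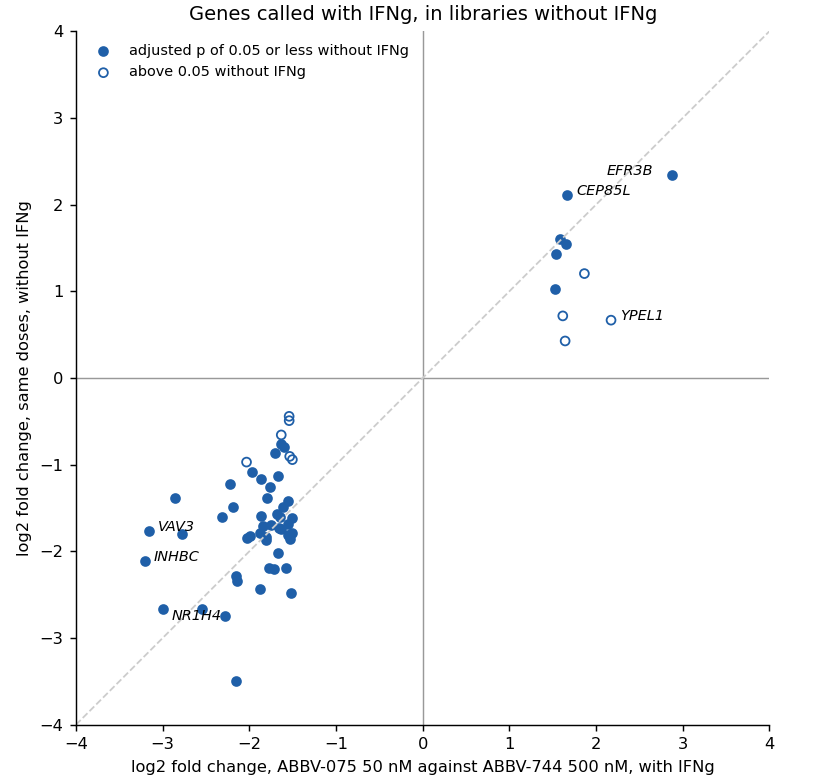
Log2 fold change between ABBV-075 50 nM and ABBV-744 500 nM with IFNg (horizontal axis) and without it (vertical axis) for the 62 called genes tested in both; filled points passed an adjusted p of 0.05 without IFNg and the dashed line marks equal values. All 62 points lie in the quadrants of equal sign, and VAV3, INHBC and YPEL1 lie nearer to 0 on the vertical axis.

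Whether a difference between the inhibitors itself changed with IFNg was tested by an interaction term over 12 libraries. At an adjusted p of 0.05, 520 genes had a negative and 124 a positive term (4.60% and 1.10% of 11298 tested, 5.70% in all). Of the 77 called genes, 2 passed, SLC1A2, a glutamate transporter (-1.13 ± 0.31, adjusted p = 0.0449), and HNMT, which inactivates histamine (-1.08 ± 0.25, adjusted p = 0.0393), both named after their values were seen. For NR1H4 the term was -0.36 ± 0.36 (adjusted p = 0.530), for EFR3B 0.50 ± 0.31 (adjusted p = 0.307) and for VAV3 -1.42 (adjusted p = 0.0785). The count of interaction calls was unstable: of 12 fits that each left out 1 library, 7 called no gene (2292 to 2797 genes at an unadjusted p under 0.05 in each), and scaling by library size alone called 4.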

How the data were processed

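Total RNA depleted of ribosomal RNA was sequenced as strand-specific libraries from HepG2 cells. Per the labels, reads were trimmed with Trimmomatic (v0.33) and aligned to GRCh38 (hg38) with STAR (v2.7.1). The deposited values are raw counts of reads per gene symbol, 1 file a library, with a column for unstranded counting and a column for each of the strands. Reads that map to several places are not counted. The annotation used for counting was not given in the sources used here. Column 4, the strand that held over 98% of counted reads, was used.

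Genes with enough reads (filterByExpr) were tested with edgeR (v4.0.16, R v4.3.3), TMM factors, a quasi-likelihood test and Benjamini-Hochberg adjustment, on the 6 libraries of each comparison or the 12 of the interaction. Log2 fold changes are ABBV-075 minus ABBV-744, so that positive values mean higher with ABBV-075. CPM values were computed with TMM factors over all 24 libraries. Of 26475 symbols, 24535 were paired with GENCODE v44. The script was tested on simulated data for the comparison of ABBV-075 50 nM with ABBV-744 500 nM under IFNg: 197 of 197 genes changed by 2.5 log2 units were called, and 1 of 10655 unchanged genes.

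Named genes were NR1H4, HEXIM1, the 10 largest study-criteria changes per direction and 5 per direction at matched dose (mean log2 CPM of at least 1, groups not overlapping, filled by adjusted p where fewer passed), the 5 smallest interaction p-values, the up to 4 smallest p-values per list and the IFNg markers. CNNM4 and other list members were named after their values were seen, and the list of IFNg-induced genes was added after seeing the data. The members and lists were chosen with earlier results of these data known. DESeq2 (v1.42.0) and other alternatives are given in the closing section. Promoters are from RefSeq (GRCh38.p14). Results for some genes are not reported here.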

Additional observations from a re-analysis of the deposited data

Results flagged for a closer look

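The edgeR interaction term reached an adjusted p of 0.05 or less for 9 of the named genes. The term tested whether the difference between ABBV-075 50 nM and ABBV-744 500 nM itself differed between libraries with and without IFNg. None of the 9 passed in every alternative run. The highest adjusted p over the alternatives was 0.106 or more for each. AGT, TGFBI, CDC20, UBXN7 and SERPINF2 were named for having the smallest interaction p-values, so their passing follows from that choice. AFF4, SERPINA7, INSIG2 and FGB were named from gene lists. Over all 11298 genes tested, 5.70% passed. Values are log2 units, with IFNg minus without. Positive terms belonged to AGT, the precursor of angiotensin (1.06, adjusted p = 0.0178), TGFBI, an extracellular matrix protein (1.06, adjusted p = 0.0178), CDC20, an activator of the anaphase-promoting complex (1.15, adjusted p = 0.0178), and SERPINF2, the plasmin inhibitor (1.07, adjusted p = 0.0393). With IFNg, the differences between the inhibitors were -0.14 for AGT, 0.25 for TGFBI, 0.31 for CDC20 and -0.02 for SERPINF2, none of which passed, and without IFNg they were -1.23, -0.84, -0.87 and -1.11, all of which passed. After GC correction their terms were 0.86, 0.91, 0.85 and 0.75.

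Negative terms belonged to UBXN7, a ubiquitin-binding cofactor (-1.0), AFF4, a scaffold of the super elongation complex (-0.65), SERPINA7 (-0.69), INSIG2, a sterol sensor (-1.0), and FGB, the fibrinogen beta chain (-0.96). After GC correction these were -0.49, -0.25, -0.35, -0.27 and -0.55, with adjusted p-values of 0.0885, 0.320, 0.167, 0.438 and 0.0723. Over all alternatives the adjusted p of AGT ranged from 1.08e-07 to 0.106 and that of INSIG2 from 0.000399 to 0.457. Groups of 3 libraries were too small for a test of single outlying libraries.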

How the results depend on the processing

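NR1H4 and HEXIM1 kept their direction and their call in every alternative run, and their mean levels moved by less than 1 SD under library size scaling. No named gene reversed. The 77 calls all kept their sign wherever they were tested. They numbered 37 when at least 10 counts were required in every library (5 higher and 32 lower genes called), since low-count genes then go untested. With no filter on low counts, 35 genes were higher and 100 lower, and with all 24 libraries in the fit 100 were lower. Leaving out 1 library gave 11 to 28 higher (28 without ABBV-744 500 nM replicate 3, 19 and 18 without its replicates 1 and 2, and 17 without ABBV-075 replicate 1) and 66 to 77 lower genes. At an adjusted p alone, the 725 higher and 830 lower genes became 439 and 507 with DESeq2, 1107 and 1323 with GC correction, 1189 and 1279 with the replicate block and 1185 and 1388 with both. Leaving out 1 library gave 378 to 907 and 498 to 947, the lowest without ABBV-744 500 nM replicate 2 (378 and 498), and 432 and 531 or 443 and 546 without ABBV-075 replicate 2 or 3. Whether the replicate numbers pair the libraries was not settled. Same-numbered libraries deviated together with correlations of 0.23, 0.01 and 0.16, and those with different numbers with correlations from -0.25 to 0.12. The block raised the counts at an adjusted p alone and left the study-criteria counts of 66 and 11 as they were.

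At matched dose, 103 genes were higher and 201 lower with no filter, 19 and 55 with at least 10 counts, and 47 to 70 and 135 to 156 when 1 library was left out. The higher count was 64 without ABBV-075 replicate 1 and 66, 61 and 70 without ABBV-744 50 nM replicates 1, 2 and 3. Without IFNg, 9 genes were higher with GC correction and 10 with GC correction and replicate block. There, 167 were lower with no filter, 40 with at least 10 counts and 149 with all 24 libraries. Leaving out 1 library gave 23 to 235 higher (23 without ABBV-075 replicate 1, 235 without its replicate 3, 155 and 51 without ABBV-744 replicates 1 and 2) and 78 to 151 lower.

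The interaction (124 positive, 520 negative) fell to 4 and 0 by library size only, where 3006 genes had an unadjusted p under 0.05. It gave 96 negative terms with GC correction, 214 and 177 with GC correction and replicate block, 428 and 1461 with the block, 191 and 781 with DESeq2, 307 and 1290 with no filter and 474 and 1308 with all 24 libraries. Leaving out 1 library gave 0 to 1116 and 0 to 1918, the highest (1116 and 1918) without ABBV-075 replicate 3 of the group lacking IFNg. It was 171 and 916 without ABBV-744 replicate 1 of that group, 246 and 792 without IFNg+ABBV-075 replicate 1, 86 and 473 without IFNg+ABBV-744 replicate 3, 3 and 0 without ABBV-075 replicate 1, and 0 for the other 7. The cause was not tested in any of these. The ABBV-075-lowered genes that were lower numbered 135 to 151 and the raised genes that were higher 47 to 54 when 1 library was left out.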

Other observations

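In genes called at an adjusted p of 0.05 with IFNg, the median GC content of transcripts was 45.4% for the 830 lower and 51.4% for the 725 higher genes, against 47.3% for all genes tested, and for the 66 and 11 genes of the study criteria it was 46.9% and 54.2%.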
